A study of Mus musculus with 12 samples.

Results

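The genes described here are 10 genes of fibroblasts, the cells that build and maintain the extracellular matrix. A tumour set of 6, Lrrc15, Fap, Postn, Tnc, Fn1 and Thbs2, consists of genes known from cancer-associated fibroblasts. A resident set of 4, Pdgfra, Tcf21, Inmt and Npnt, consists of genes known from the fibroblasts of the healthy lung. They were taken by symbol as 10 of the 78298 gene rows of the count table. All 10 were among the 22190 genes that passed the filter on low counts. The genes were selected on the measured differences between tumour and adjacent lung in these libraries. Those differences are therefore given as a description of the 10 genes, without a test. The responses to treatment were not part of the choice and were tested.

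RNA was sequenced from mouse lung in 12 libraries, 3 in each of 4 groups. Tissue was either macroscopic LLC tumour or the normal lung beside it, dissected by hand, and animals had received HDM, spelled out in the series title as house dust mite, or VEH. Libraries are named here by tissue (normal or tumour), treatment and replicate number. The normal VEH and tumour VEH groups share the VEH treatment, and the normal HDM and tumour HDM groups share chronic HDM exposure. The labels do not spell out LLC or VEH, and strain, age, sex, dose and the number of exposures are not given in the sources used here. A dissected tumour holds cancer cells and host cells together, and every library carries the same batch label. The labels do not say that replicates came from separate animals, so a p-value here measures the spread between these libraries, which may in part be technical. Total counts ran from 20608682 to 30187882 in tumour libraries and from 25453248 to 32765364 in normal libraries.

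Fibroblasts of the healthy lung include alveolar fibroblasts, which lie beside the gas-exchange epithelium and are marked by Pdgfra, Tcf21, Inmt and Npnt, and adventitial fibroblasts, which lie in the cuffs around vessels and airways. In a tumour, fibroblasts often take on an activated state. Activated fibroblasts lay down fibronectin, tenascin C, periostin and thrombospondin 2, matrix proteins that bind integrins, and they carry Fap and Lrrc15 on the surface. TGF-beta is the classical inducer of this state. Several of these genes are also used by other cells: carcinoma cells, macrophages and smooth muscle can all make fibronectin or tenascin C.

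The promoters of 4 members are shown first, as the 250 bases before the start of the Ensembl canonical transcript in GRCm39 (GENCODE M39), all read on the minus strand. In each of the 4 genes all tumours lay apart from all normal libraries, which also held for Tcf21 and Npnt. Fn1 (ENSMUSG00000026193) lies on chromosome 1 from 71624673 to 71692419, and its window is chr1:71692420-71692669. Lrrc15 (ENSMUSG00000052316) lies on chromosome 16 from 30088120 to 30102084, and its window is chr16:30102085-30102334. Thbs2 (ENSMUSG00000023885) lies on chromosome 17 from 14885761 to 14914528, and its window is chr17:14914529-14914778. Inmt (ENSMUSG00000003477) lies on chromosome 6 from 55147606 to 55152028, and its window is chr6:55152029-55152278. Capitals mark matches, on either strand, to the motifs named after the sequences.
Fn1: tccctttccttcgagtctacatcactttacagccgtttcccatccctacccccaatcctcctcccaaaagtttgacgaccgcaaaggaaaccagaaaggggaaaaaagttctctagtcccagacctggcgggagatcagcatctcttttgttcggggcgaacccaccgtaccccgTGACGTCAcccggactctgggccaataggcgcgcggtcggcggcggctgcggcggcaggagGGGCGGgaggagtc
Lrrc15: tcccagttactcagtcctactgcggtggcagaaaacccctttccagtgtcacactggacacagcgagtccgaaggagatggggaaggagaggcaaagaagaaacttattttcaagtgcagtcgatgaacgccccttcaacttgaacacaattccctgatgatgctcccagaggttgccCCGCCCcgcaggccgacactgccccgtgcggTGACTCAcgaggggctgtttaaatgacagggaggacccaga
Thbs2: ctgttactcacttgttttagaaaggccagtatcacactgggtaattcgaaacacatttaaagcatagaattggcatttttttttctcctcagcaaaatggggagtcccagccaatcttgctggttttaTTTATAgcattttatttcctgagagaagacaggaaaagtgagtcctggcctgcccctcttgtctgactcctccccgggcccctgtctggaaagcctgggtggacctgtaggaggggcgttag
Inmt: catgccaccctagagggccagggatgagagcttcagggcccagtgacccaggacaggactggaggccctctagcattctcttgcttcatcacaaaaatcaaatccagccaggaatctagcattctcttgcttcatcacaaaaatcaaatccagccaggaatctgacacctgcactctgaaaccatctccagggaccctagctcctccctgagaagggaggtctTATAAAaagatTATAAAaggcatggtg

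The Fn1 window was 60.0% G and C with 20 CpG pairs, and held a cyclic AMP response element, TGACGTCA, and a GC box, GGGCGG. Lrrc15 had a GC box and a match to the AP-1 motif TGANTCA in a window with 55.6% G and C and 11 CpG. Thbs2 (46.8% G and C, 3 CpG) held 1 TATA box, TATAAA, on the opposite strand. Inmt (49.6% G and C) held 2 TATA boxes close to the start and 0 CpG. Of the other members, Fap held 1 TATA box, and Postn, Tnc, Pdgfra, Tcf21 and Npnt held none of the motifs. Among 21770 promoters of protein-coding genes cut the same way, TGANTCA occurred in 6.17%, GGGCGG in 36.3%, TATAAA in 11.9% and TGACGTCA in 1.69%. The TEAD motif CATTCC (12.1% of promoters) and the CArG box (1.40%) were also searched and occurred in none of the 10 windows. A match is a description of the letters, not of binding, and TGACGTCA was added to the search after the Fn1 window had been read.

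Libraries differed within groups, and 3 stood apart. The level of a gene is given in CPM, counts divided by the TMM-scaled size of the library, and the summed CPM of marker genes describes what each piece of tissue held. Tumour VEH replicate 2 had the most alveolar type 2 epithelial RNA of the tumours (summed markers 7091 CPM, against 65.1 to 2218 in the other 5) and the lowest pan-fibroblast sum (5345 CPM, against 11339 to 13757). Of the pan-fibroblast list only Col3a1 (2860 CPM, against 7764 to 10276) and Dcn (1444 CPM) were lowest there among tumours. Col3a1 alone made up most of the pan-fibroblast sum in every tumour. Col1a1, Col1a2, Pdgfrb and Lum were lower in tumour HDM replicate 2. Tumour HDM replicate 3 had the least alveolar type 2 RNA (65.1 CPM), endothelial RNA (91.1 CPM, against 132 to 414) and alveolar type 1 RNA (43.7 CPM, against 209 to 1079). Normal VEH replicate 2 had the most RNA of dividing cells among normal libraries (142 CPM, against 25.0 to 37.6) and the least endothelial RNA (1026 CPM, against 2007 to 2326). The 6 pan-fibroblast genes (Col1a1, Col1a2, Col3a1, Dcn, Pdgfrb and Lum), none of them at 0 in any library, summed to 776 to 3057 CPM in normal libraries and 5345 to 13757 CPM in tumours, so RNA of fibroblast genes was present in every piece. The list did not move as one: Col3a1, Dcn and Lum had higher means in tumours than in adjacent lung under each treatment, while Col1a2 had lower ones (86.5 CPM in tumours and 392 CPM in adjacent lung under VEH, 73.8 and 357 CPM under HDM), as did Col1a1 and Pdgfrb. In bulk tissue, fewer cells of a type and less RNA of a gene per cell cannot be told apart.

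**Figure D1:**
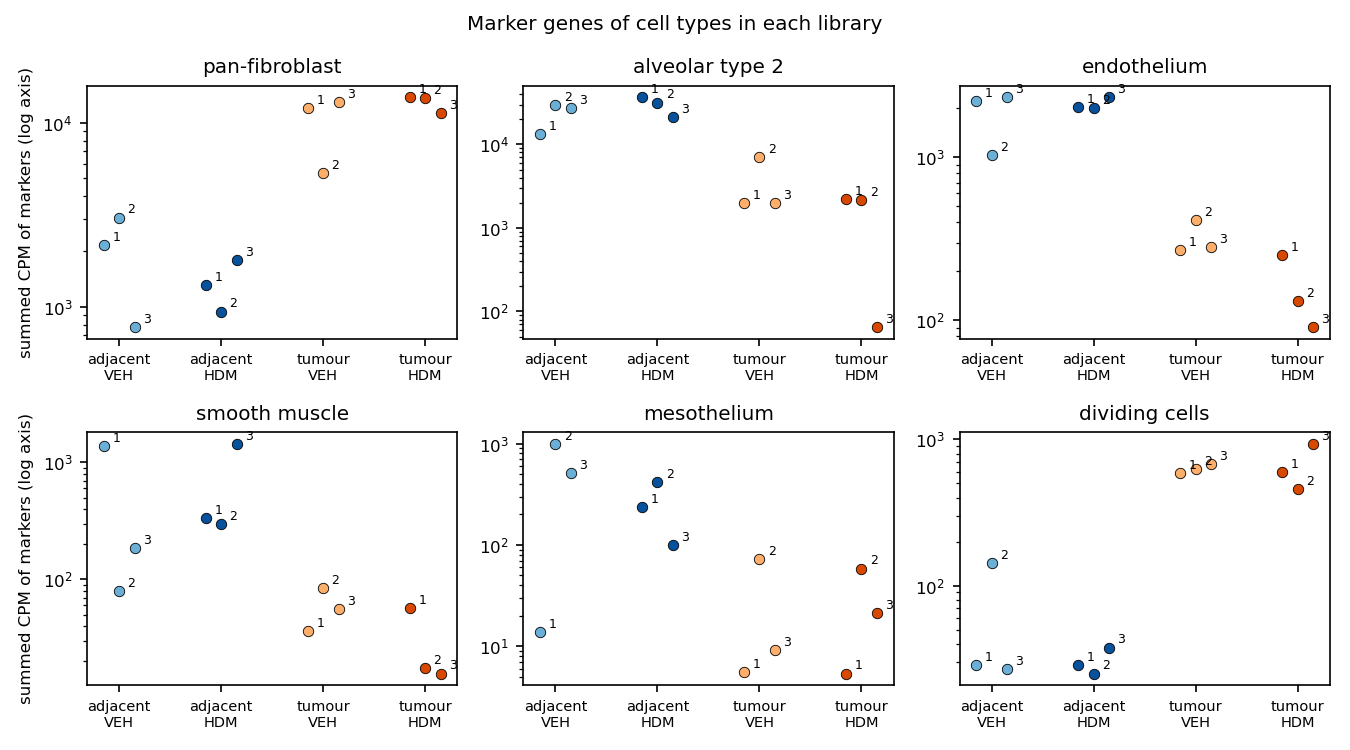
Summed CPM of 6 marker lists (pan-fibroblast, alveolar type 2, endothelium, smooth muscle, mesothelium and dividing cells) on a log axis, one point per library, by group. Alveolar type 2 and endothelial sums were lower in all tumours than in all normal libraries, pan-fibroblast sums were higher although Col1a1, Col1a2 and Pdgfrb of that list had lower means in tumours, and tumour HDM replicate 3 sat lowest for alveolar type 2 (65.1 CPM) and endothelium (91.1 CPM).

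The surface proteins of activated fibroblasts were nearly silent in adjacent lung. Lrrc15, a leucine-rich repeat membrane protein, had 28.8, 12.9 and 21.7 CPM in tumour VEH replicates 1, 2 and 3 and 36.2, 21.2 and 5.03 CPM in tumour HDM replicates 1, 2 and 3. In adjacent lung Lrrc15 had 0.329, 1.26 and 0.253 CPM under VEH and 0.0819, 0 and 0.516 CPM under HDM. Each tumour library was thus above each normal library, with the lowest tumour value in HDM replicate 3, and the 0 in normal HDM replicate 2 allows up to 0.113 CPM (3 counts). The fitted log2 difference, tumour minus adjacent, was 5.06 (SE 1.06) under VEH and 6.65 (SE 1.18) under HDM. It was 6.16 under VEH without normal VEH replicate 2, and 8.99 under HDM without normal HDM replicate 3, while the normal libraries held 0 to 40 counts of Lrrc15 each. The lncRNA Gm60555 lies on the opposite strand of Lrrc15 with 1433 counts in all, 44.3% of the 3237 counts of Lrrc15, and whether counting used the strand is not stated.

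Fap (ENSMUSG00000000392, chromosome 2, 62331286 to 62404419), a membrane serine protease, varied more among tumours than Lrrc15 did. Its level was 13.6, 1.41 and 56.5 CPM in tumour VEH replicates 1 to 3, and 53.8, 8.44 and 27.0 CPM in tumour HDM replicates 1 to 3. Adjacent lung had 1.15, 1.64 and 0.168 CPM of Fap under VEH and 0.369, 0 and 1.10 CPM under HDM. Tumour VEH replicate 2, the tumour richest in alveolar type 2 RNA, was below normal VEH replicate 2, so the VEH groups overlapped, whereas the HDM groups did not. The fitted log2 difference of Fap was 4.57 (SE 1.44) under VEH and 5.90 (SE 1.55) under HDM. Without tumour VEH replicate 3, the VEH difference was 2.99.

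Fibronectin was the most abundant member in tumours. Fn1, the gene of the fibronectin that fibroblasts assemble into fibrils, had 7765, 2982 and 12103 CPM in tumour VEH replicates 1 to 3 and 10641, 11591 and 7157 CPM in tumour HDM replicates 1 to 3. In adjacent lung Fn1 had 139, 847 and 119 CPM under VEH and 534, 269 and 336 CPM under HDM. The lowest tumour, VEH replicate 2, was still above the highest normal library, VEH replicate 2. Fn1 had a fitted log2 difference of 4.37 (SE 0.83) under VEH and 4.69 (SE 0.84) under HDM, and without normal VEH replicate 2 the VEH value was 5.89.

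Thbs2, a secreted thrombospondin of the matrix, separated the tissues as well. It had 832, 403 and 911 CPM in tumour VEH replicates 1 to 3 and 1073, 1389 and 736 CPM in tumour HDM replicates 1 to 3. Adjacent lung had 8.38, 143 and 4.04 CPM of Thbs2 under VEH and 16.2, 2.94 and 20.0 CPM under HDM. Normal VEH replicate 2 was far above the other 5 normal libraries and still below all tumours. For Thbs2 the log2 difference was 3.79 (SE 1.21) under VEH and 6.35 (SE 1.37) under HDM. Without normal VEH replicate 2 the VEH value was 6.85, so the treatments lay closer together without it. The same library was the highest normal library for dividing-cell markers (142 CPM), mesothelial markers (989 CPM) and the pan-fibroblast sum (3057 CPM). Of the pan-fibroblast list, Col3a1, Dcn and Lum were highest there among normal libraries, Col1a1 and Col1a2 were not, and Pdgfrb was lowest (26.7 CPM). The part of these cell types in its Thbs2 and Fn1 levels was not tested.

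Tnc (ENSMUSG00000028364, chromosome 4, 63878014 to 63965443), the hexameric matrix protein tenascin C, was high in 5 of 6 tumours. Tnc had 201, 212 and 392 CPM in tumour VEH replicates 1 to 3 and 270, 88.8 and 9.70 CPM in tumour HDM replicates 1 to 3. Adjacent lung had 24.9, 48.9 and 7.16 CPM of Tnc under VEH and 9.58, 10.1 and 33.5 CPM under HDM. Tumour HDM replicate 3 lay within the normal range, so the tissues overlapped under HDM but not under VEH. The fitted log2 difference of Tnc was 3.31 (SE 1.07) under VEH and 2.79 (SE 1.04) under HDM. Without tumour HDM replicate 1 the HDM value was 1.62, and without normal HDM replicate 3 it was 3.77. The opposite-strand lncRNA 8030451A03Rik had 2813 counts, 8.74% of the 32171 of Tnc.

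Postn went against the name of the tumour set. Postn (ENSMUSG00000027750, chromosome 3, 54268501 to 54298471) encodes periostin, a matricellular protein of remodelling tissue. It had 60.8, 23.4 and 27.9 CPM in tumour VEH replicates 1 to 3 and 111, 52.5 and 11.6 CPM in tumour HDM replicates 1 to 3. Adjacent lung had 227, 38.1 and 180 CPM of Postn under VEH and 164, 105 and 270 CPM under HDM. Both treatments overlapped between tissues, and the tumour values lay mostly below the normal ones, with log2 differences of -1.99 (SE 0.82) under VEH and -1.63 (SE 0.81) under HDM, or -0.996 under HDM without tumour HDM replicate 3. Postn was highest in normal HDM replicate 3 and normal VEH replicate 1, the libraries with the most smooth muscle RNA (summed markers 1436 and 1382 CPM), and lowest in adjacent lung in normal VEH replicate 2, the one with the least (79.1 CPM). The other normal libraries had 186 to 332 CPM of these markers, and VEH replicate 3, with the least of them, had the most Postn (180 CPM). Tumours had 15.7 to 84.7 CPM of the markers. Tumour HDM replicate 3 was the lowest tumour for both, with Cnn1 at 0. Tumour VEH replicate 2 had the most markers (84.7 CPM) but 23.4 CPM of Postn, and tumour HDM replicate 2 had 17.6 CPM of markers and 52.5 CPM of Postn. The part of smooth muscle in the Postn levels was not tested.

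**Figure D2:**
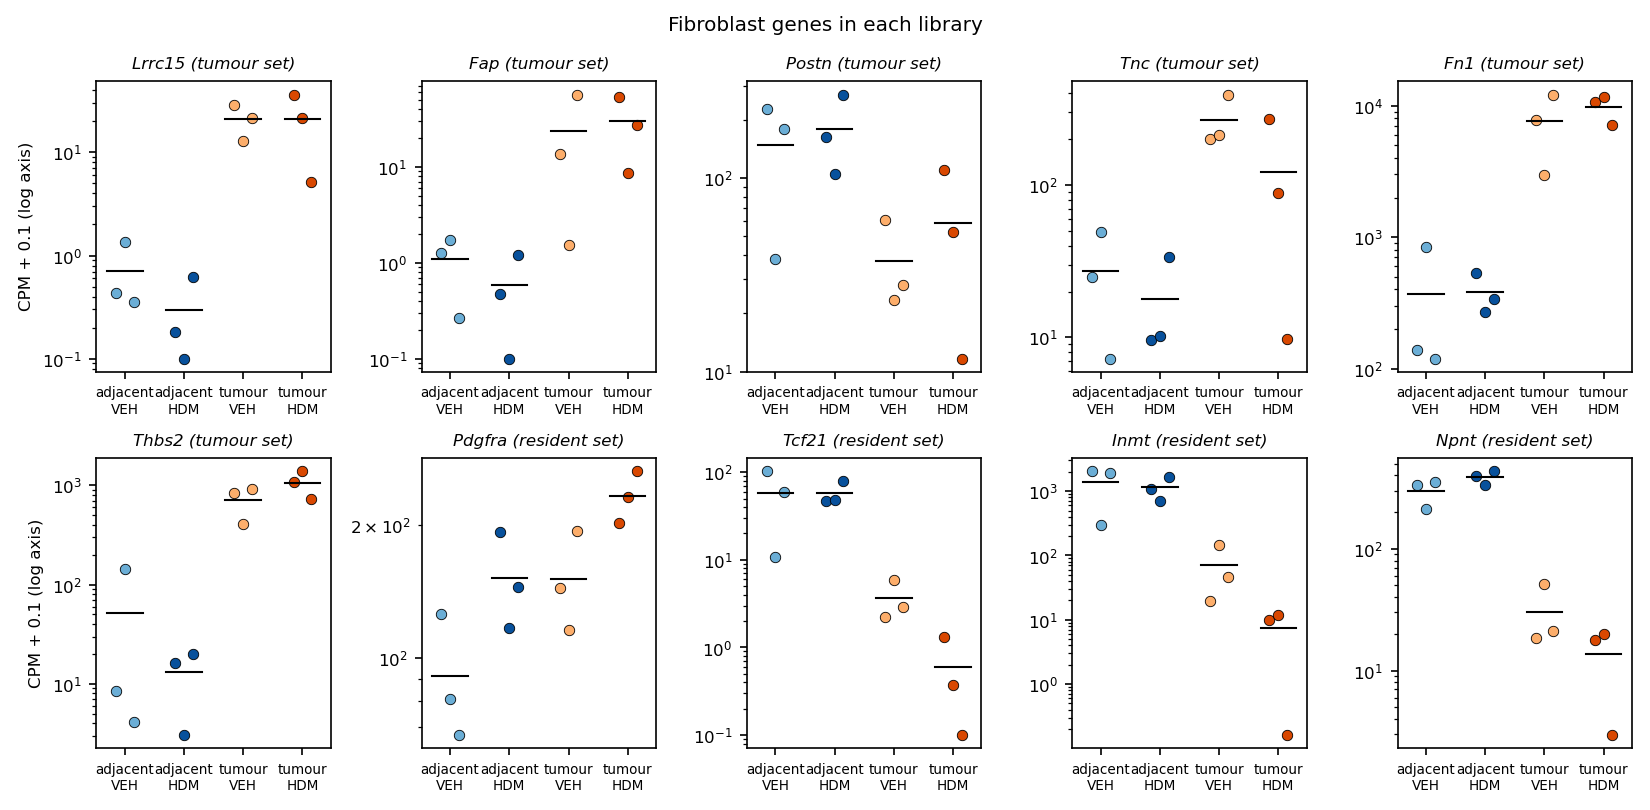
CPM plus 0.1 of the 10 genes on log axes, one panel per gene, with a point per library and a bar at the group mean, for the 4 groups of 3. Lrrc15, Fn1 and Thbs2 separate all tumours from all normal libraries upwards, Tcf21, Inmt and Npnt separate them downwards, and Postn and Pdgfra do not follow their sets.

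In the resident set, 3 of the 4 genes were far lower in tumours and the other was not. Tcf21 (ENSMUSG00000045680, chromosome 10, 22692803 to 22696073), a basic helix-loop-helix transcription factor needed for lung mesenchyme development, had 103, 10.6 and 58.8 CPM in normal VEH replicates 1 to 3 and 46.3, 48.4 and 79.8 CPM in normal HDM replicates 1 to 3. In tumours Tcf21 had 2.12, 5.73 and 2.77 CPM under VEH and 1.23, 0.273 and 0 CPM under HDM. All tumours were below all normal libraries, the lowest normal value was in VEH replicate 2, and the 0 in tumour HDM replicate 3 allows up to 0.0910 CPM (3 counts). The fitted log2 difference of Tcf21 was -4.01 (SE 1.00) under VEH and -6.92 (SE 1.19) under HDM. The antisense lncRNA Gm10824 had 2944 counts in all, 32.3% of the 9111 of Tcf21.

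Inmt, a methyltransferase that acts on indole amines, was the resident gene with the highest level. It had 2043, 302 and 1883 CPM in normal VEH replicates 1 to 3 and 1083, 715 and 1671 CPM in normal HDM replicates 1 to 3. Tumours had 19.7, 145 and 45.5 CPM of Inmt under VEH and 9.86, 11.9 and 0.0607 CPM under HDM. The tissues did not overlap, although the highest tumour (VEH replicate 2) and the lowest normal library (VEH replicate 2) came close. In tumour HDM replicate 3 the Inmt level stood for 2 counts. For Inmt the log2 difference was -4.33 (SE 1.32) under VEH and -7.32 (SE 1.52) under HDM.

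Npnt (ENSMUSG00000040998, chromosome 3, 132587506 to 132656257), whose product nephronectin is a basement membrane ligand of the integrin that contains Itga8, was the steadiest of the low genes. It had 330, 213 and 355 CPM in normal VEH replicates 1 to 3 and 393, 335 and 433 CPM in normal HDM replicates 1 to 3. Tumours had 18.3, 51.2 and 20.9 CPM of Npnt under VEH and 17.8, 19.7 and 2.85 CPM under HDM. The groups did not overlap, with tumour VEH replicate 2 again the highest tumour and tumour HDM replicate 3 the lowest, and the opposite-strand lncRNA Gm65623 had 11698 counts, 20.6% of the 56820 of Npnt. Npnt had log2 differences of -3.31 (SE 0.64) under VEH and -4.85 (SE 0.69) under HDM. Tumour VEH replicate 2, the highest tumour for Tcf21, Inmt and Npnt, also had the most alveolar type 2, alveolar type 1 (1079 CPM) and endothelial (414 CPM) RNA of the tumours, and the part of remaining lung tissue in these levels was not tested.

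Pdgfra departed from the other resident genes. Pdgfra (ENSMUSG00000029231, chromosome 5, 75311994 to 75358876), the receptor of PDGF-A and PDGF-C, had 126, 80.7 and 66.9 CPM in normal VEH replicates 1 to 3 and 193, 117 and 145 CPM in normal HDM replicates 1 to 3. In tumours Pdgfra had 144, 116 and 194 CPM under VEH and 202, 231 and 265 CPM under HDM. Tumours lay above adjacent lung without overlap under HDM and with overlap under VEH. The highest value was in tumour HDM replicate 3, where Tcf21, Inmt and Npnt were lowest. Pdgfra had log2 differences of 0.73 (SE 0.27) under VEH and 0.62 (SE 0.27) under HDM. Scaling by library size alone moved the median of all genes from -0.11 to 0.03 under VEH and from -0.08 to 0.10 under HDM, and gave Pdgfra 0.88 and 0.79, so its distance from the median of all genes changed little.

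Across the 10 genes, the tumour set had 4 of 6 members above adjacent lung without overlap under VEH (Lrrc15, Tnc, Fn1 and Thbs2) and 4 of 6 under HDM (Lrrc15, Fap, Fn1 and Thbs2). Of all genes tested, 23.9% were above without overlap under VEH and 29.6% under HDM. The resident set had 3 of 4 members below without overlap under each treatment (Tcf21, Inmt and Npnt), where 28.5% of all genes were so under VEH and 33.5% under HDM. Because these differences were known when the genes were chosen, the counts describe the choice. The median log2 difference of the tumour set was 4.08 under VEH and 5.29 under HDM, that of the resident set -3.66 and -5.88, and that of all genes -0.11 and -0.08. Without the 3 libraries that stand apart, the VEH median of the tumour set was 5.99.

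**Figure D3:**
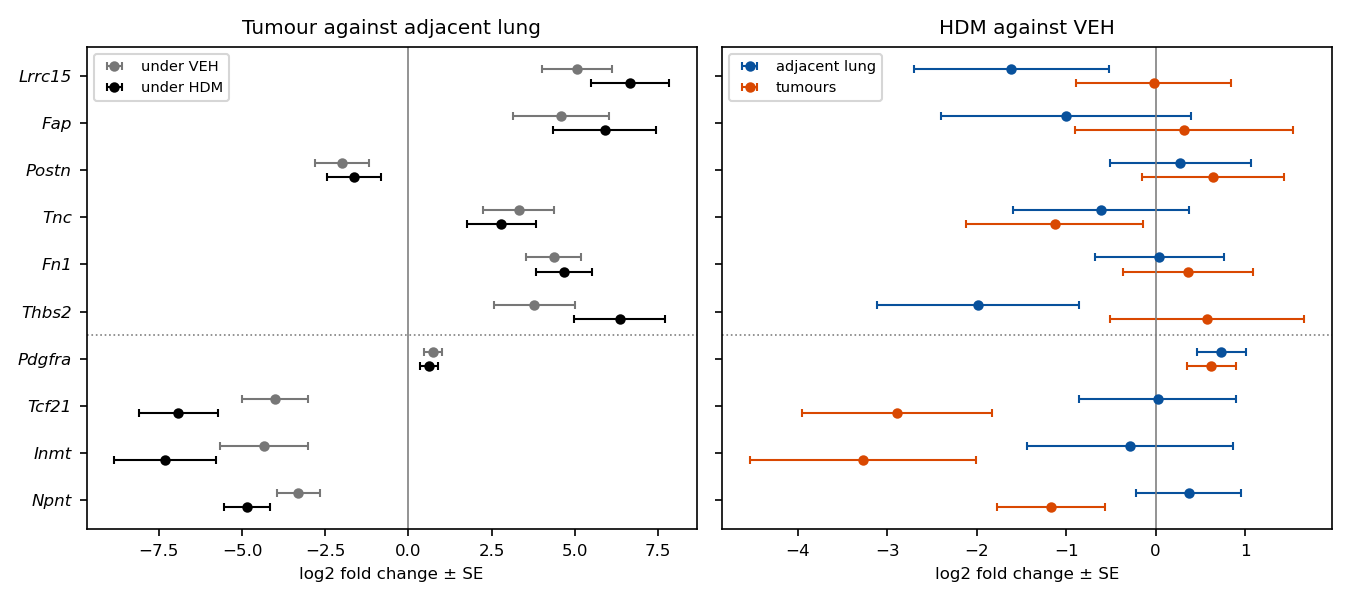
Fitted log2 differences of the 10 genes with 1 SE on either side. The left panel gives tumour against adjacent lung under VEH and HDM and the right panel HDM against VEH in adjacent lung and in tumours. On the left Postn sits below 0 (-1.99 and -1.63) and Pdgfra above it (0.73 and 0.62), against the other members of their sets.

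Library by library, the sets exchanged places. The mean log2 CPM of the 6 tumour genes minus that of the 4 resident genes was between -5.54 and -1.61 in the 6 normal libraries and between 0.56 and 5.29 in the 6 tumours. Normal VEH replicate 2 was the highest of the normal libraries (-1.61), and tumour VEH replicate 2 was the lowest of the tumours (0.56). Tumour HDM replicate 3 had the largest difference, 5.29. It came from a resident mean of 0.75, against 3.56 to 5.56 in the other tumours, while its tumour-gene mean of 6.05 was the lowest of the 6 tumours.

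Library names carry prefixes that each join 1 normal and 1 tumour library, 6 pairs in all, although 2 of the pairs join libraries with different treatment labels. Within these pairs Lrrc15, Fap, Tnc, Fn1, Thbs2 and Pdgfra were each higher in the tumour in 6 of 6, and Tcf21, Inmt and Npnt were lower in 6 of 6. For Lrrc15, Fn1, Thbs2, Tcf21, Inmt and Npnt every tumour lay beyond every normal library, so any pairing gives 6 of 6. The genes were also chosen with this difference known, so these counts are a description. The log2 difference within pairs ran from 3.74 to 5.80 for Fn1, a narrow range, and from 3.28 to 8.47 for Thbs2. For Tnc it ran from 0.02 to 4.88. Among the resident genes it ran from -7.07 to -2.79 for Npnt and from -12.95 to -3.70 for Inmt. Postn was lower in the tumour in 4 pairs and higher in 2, from -3.82 to 0.46.

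**Figure D4:**
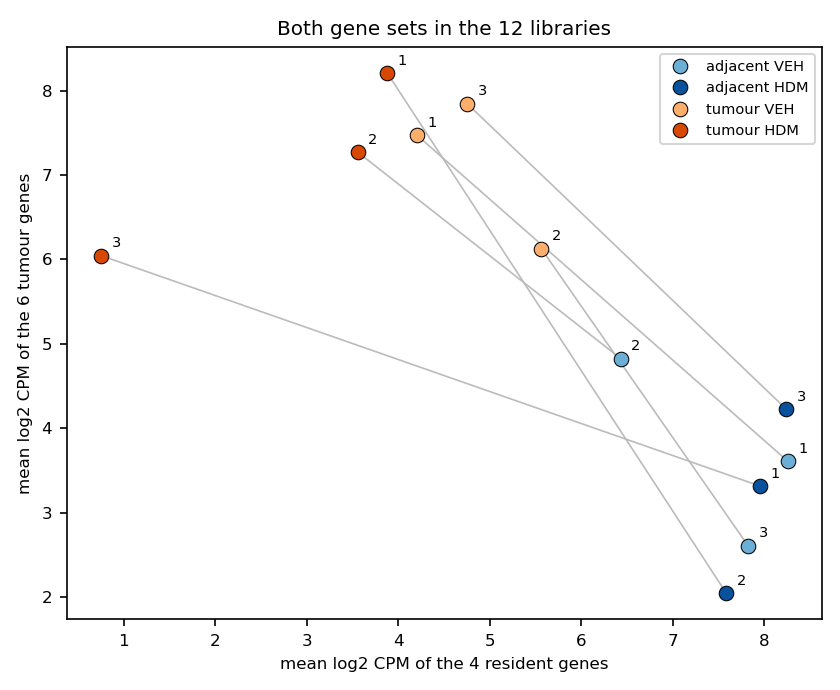
Mean log2 CPM of the 4 resident genes (horizontal axis) and of the 6 tumour genes (vertical axis), a point per library numbered by replicate and coloured by group, with lines joining libraries that share a name prefix. Normal libraries lie at the lower right and tumours at the upper left, and tumour HDM replicate 3 lies farthest left at 0.75.

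Levels were compared between genes as CPM per kilobase of gene length. In adjacent lung Inmt stood first, with 881 ± 601 CPM per kb (SD, n = 3) under VEH and 723 ± 301 under HDM, above Npnt in 3 of 3 libraries of each group. Npnt followed with 59.6 ± 15.1 under VEH and 77.0 ± 9.82 under HDM. Fn1, Tcf21, Postn and Pdgfra came next in that order, with neighbours overlapping in each case, and Fap (0.174 ± 0.132 under VEH) and Lrrc15 (0.115 ± 0.105) came last and overlapped. In tumours Fn1 was first, with 652 ± 390 CPM per kb under VEH and 838 ± 200 under HDM, and Thbs2 second, with 102 ± 39 and 152 ± 46.7. These did not overlap each other under either treatment. Tcf21 was last in tumours, at 1.51 ± 0.818 CPM per kb under VEH and 0.214 ± 0.275 under HDM. Pdgfra, which stood below Postn in both normal groups, stood above Postn and Npnt in tumour VEH (15.1 ± 3.93) and directly below Thbs2 in tumour HDM (23.2 ± 3.12), where it overlapped Tnc below it.

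Whether HDM altered these genes in tumours was tested against the spread of the libraries. None of the 10 genes was called by edgeR's quasi-likelihood test (threshold 0.05 after Benjamini-Hochberg adjustment over 22190 genes), where 0.0946% of all genes were. An unadjusted p below 0.05 in that test was held by 3 of the 10 and by 3698 of the 22190 genes. The 6 tumour-set genes had log2 differences from -1.13 to 0.64, with wide intervals. Lrrc15 differed by -0.02 on the log2 scale (95% interval -1.95 to 1.91, adjusted p 0.995), Fn1 by 0.36 (-1.24 to 1.96, adjusted p 0.838) and Thbs2 by 0.58 (-1.83 to 2.98, adjusted p 0.829). Fap differed by 0.32 (-2.38 to 3.02), Postn by 0.64 (-1.12 to 2.40) and Tnc by -1.13 (-3.31 to 1.05). These intervals leave room for several-fold differences in either direction.

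Tcf21 and Inmt had the widest differences of the 10 genes between HDM and VEH tumours. Tcf21 had 3.54 ± 1.92 CPM (SD, n = 3) in VEH tumours and 0.502 ± 0.647 in HDM tumours, and Inmt 70.0 ± 66.1 and 7.27 ± 6.32 CPM. For both genes all 3 HDM tumours were below all 3 VEH tumours, as were 10.7% of all genes. The log2 difference was -2.89 for Tcf21 (-5.24 to -0.54, adjusted p 0.236) and -3.27 for Inmt (-6.08 to -0.46, adjusted p 0.251) in the edgeR quasi-likelihood test. With the DESeq2 Wald test Inmt was past the threshold (-3.30, adjusted p 0.0490) and Tcf21 was not (-2.85, adjusted p 0.0607). Of 22190 genes, the Wald test called 253 higher and 1055 lower in this comparison, where the edgeR test called 2 and 19. The adjusted p of Inmt was 0.203 to 0.862 under the other alternatives. With 1 tumour left out the differences ran from -4.71 to -2.23 for Tcf21 and from -3.80 to -2.17 for Inmt, and without the 3 libraries that stand apart they were -1.73 for Tcf21 and -1.58 for Inmt. Npnt differed by -1.17 (-2.50 to 0.17, adjusted p 0.355), and by -0.06 without those 3 libraries. Endothelial markers summed to 91.1 to 250 CPM in HDM tumours and 269 to 414 CPM in VEH tumours. Alveolar type 1 markers summed to 43.7 to 299 CPM and 240 to 1079 CPM, with overlap. The part of remaining lung tissue in the differences of Tcf21, Inmt and Npnt between treatments was not tested.

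Pdgfra went the other way in tumours. It had 151 ± 39.4 CPM in VEH tumours and 233 ± 31.2 CPM in HDM tumours, with all HDM tumours above all VEH tumours, as were 11.3% of all genes. Its log2 difference of 0.62 (0.02 to 1.22) had an unadjusted p of 0.0440 and an adjusted p of 0.287 in the edgeR test. Without the 3 libraries that stand apart it was 0.36.

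In adjacent lung none of the 10 genes passed the threshold between HDM and VEH, and 0% of all genes did in the edgeR test, where 1230 genes had an unadjusted p below 0.05. No member separated the groups without overlap, whereas 4.47% of all genes were higher and 5.85% lower without overlap. The smallest adjusted p was that of Pdgfra, 0.887, for 91.2 ± 30.9 CPM under VEH and 152 ± 38.3 CPM under HDM, a log2 difference of 0.73 (0.13 to 1.34, unadjusted p 0.0217). Thbs2 had the largest difference, -1.99 (-4.49 to 0.52, adjusted p 0.901), which was 1.07 without normal VEH replicate 2. The remaining members lay between -1.61 (Lrrc15) and 0.37 (Npnt).

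The interaction asks whether the gap between tumour and adjacent lung differed between HDM and VEH. None of the 10 genes passed, with adjusted p from 0.539 to 0.946 in the edgeR test. Of all genes 0% passed, and 2084 had an unadjusted p below 0.05. The estimates ran from -2.99 for Inmt (-6.69 to 0.72) and -2.91 for Tcf21 (-5.95 to 0.13) to 2.56 for Thbs2 (-0.90 to 6.03). Without the 3 libraries that stand apart these were -0.82, -1.26 and -0.57, so the Thbs2 estimate changed sign. For Pdgfra the interaction was -0.11 (-0.96 to 0.74), the narrowest interval of the 10.

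Other genes of the same cell states were followed through 7 lists, in tests of tumour against adjacent lung over all genes. Under VEH 18.2% of all genes rose and 20.6% fell at an adjusted p below 0.05, and under HDM 23% rose and 28.9% fell. The lists hold none of the 10 genes. They too were chosen with earlier results of these data known, so their counts and medians describe the lists as chosen.

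The other genes of alveolar fibroblasts fell nearly as a block. Of 20, 16 fell and 0 rose in tumours under VEH, and 17 fell and 1 rose under HDM, with median log2 differences of -3.46 and -5.14. Gdf10, a secreted factor of the BMP family, fell, with a log2 difference of -4.86 (SE 1.42, adjusted p 0.0219) under VEH and -7.01 (SE 1.64, adjusted p 0.00545) under HDM. Wnt2, a Wnt ligand of lung mesenchyme, fell by 4.35 (SE 0.85, adjusted p 0.00327) under VEH. Under HDM the Wnt2 counts were at most 2 in every tumour, so it was at least 62.3-fold lower against a floor of 3 counts per library, from 6.58 CPM in adjacent lung. Cdo1, cysteine dioxygenase, fell (-4.62, SE 0.86, under VEH and -5.66, SE 0.91, under HDM), as did Slc7a10, an amino acid transporter (-4.6, SE 1.18, and -6.78, SE 1.34).

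Transcription factors of lung mesenchyme fell along with them. Foxf1 fell, with log2 differences of -3.45 (SE 0.68, adjusted p 0.00367) under VEH and -5.12 (SE 0.74, adjusted p 0.000451) under HDM. Tbx2, Tbx4, Tbx5 and Meox2 also fell under both treatments, from -2.61 (Tbx4, SE 0.56) to -3.61 (Meox2, SE 0.81) under VEH. Vegfd, Fgf10 and Plin2 were not called lower under either treatment. Vegfd, a growth factor for lymphatic vessels, rose under HDM by 1.17 (SE 0.33, adjusted p 0.0124) and differed under VEH by 0.85 (adjusted p 0.0597). Fgf10, which supports epithelial branching, differed by 0.75 (adjusted p 0.237) and 1.18 (adjusted p 0.0673), and Plin2, a lipid droplet protein, by 0.06 and 0.05. With at least 10 counts required in every library, 9 of the list fell under each treatment, because fewer of its genes were tested. Without the 4 libraries with conflicting prefixes 10 fell under VEH. The number that rose under VEH was 2 without normal VEH replicate 1 and 1 without tumour VEH replicate 2, without the 4 libraries, with library size scaling or with the prefix block. Under HDM it was 2 without normal HDM replicate 3, with library size scaling or with the prefix block. Markers of other alveolar cells moved with the list: alveolar type 1 markers summed to 2999 to 5560 CPM in normal libraries and 43.7 to 1079 CPM in tumours, with none at 0, and their part in the list's counts was not tested.

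Matrix genes of activated fibroblasts and myofibroblasts split in both directions, as Postn and Fn1 did. Of 29 tested (Col11a1 did not pass the filter), 9 rose and 10 fell under VEH, and 10 rose and 12 fell under HDM, with medians of -0.62 and -0.19. Twist1, a transcription factor of mesenchyme, rose by 4.41 (SE 1.04, adjusted p 0.00866) under VEH and 6.16 (SE 1.16, adjusted p 0.00178) under HDM. The proteoglycan Vcan rose by 3.6 (SE 1.06) and 5.0 (SE 1.13), and the collagens Col3a1 (3.20, SE 0.60, and 4.57, SE 0.64) and Col8a1 (3.41, SE 0.43, and 2.63, SE 0.41) rose as well. Inhba, a subunit of activin, rose by 3.61 (SE 0.73, adjusted p 0.00403) under VEH and differed by 1.52 (adjusted p 0.0817) under HDM.

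Among genes of contraction and collagen I, none of those named here was called higher. Tagln, a smooth muscle actin-binding protein, fell (-3.81, SE 1.02, adjusted p 0.0155, and -4.53, SE 1.06, adjusted p 0.00544), and Acta2, smooth muscle actin, differed by -2.47 (adjusted p 0.0949) under VEH and fell by 3.58 (SE 1.15, adjusted p 0.0235) under HDM. Cthrc1, a secreted protein often used to mark activated fibroblasts, fell (-2.5, SE 0.90, adjusted p 0.0476, and -2.81, SE 0.92, adjusted p 0.0254) from low levels in adjacent lung (3.86 ± 3.31 CPM under VEH). Col1a1 had 254 ± 235 CPM in adjacent lung and 218 ± 94.8 CPM in tumours under VEH (adjusted p 0.830), while Col1a2 fell (-2.18, SE 0.61, and -2.27, SE 0.62). The count of matrix genes that fell under VEH was 4 without tumour VEH replicate 1 and 6 without normal VEH replicate 1, without tumour VEH replicate 3 or without a filter on low counts, and it was 4 without the 4 libraries with conflicting prefixes. Under HDM it was 7 without tumour HDM replicate 2 or without those 4 libraries. Smooth muscle markers, Acta2 among them, moved with tissue too (79.1 to 1436 CPM in normal libraries, 15.7 to 84.7 CPM in tumours), and their part in these counts was not tested.

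Genes of inflammatory cancer-associated fibroblasts differed in count between treatments. Of 16, 2 rose and 5 fell under VEH (median -1.12), and 7 rose and 5 fell under HDM (median 1.97). No gene of this list passed the interaction test. Without normal VEH replicate 2, 6 rose under VEH, without normal VEH replicate 1 or 3 or tumour VEH replicate 1 or 3 only 1 did, and 4 rose under HDM when replicate 2 of either HDM group was left out. The number that fell was 3 under VEH without tumour VEH replicate 1, and 3 under HDM without tumour HDM replicate 3. Under HDM 4 rose also with no filter, with at least 10 counts required in every library and with the replicate block, and 3 fell with no filter. Under VEH 1 rose in those same 3 settings and in the fit of only the compared groups, and 4 rose with the DESeq2 Wald test and without the 4 libraries with conflicting prefixes. With the prefix block, and without those 4 libraries, 3 fell under VEH. Has2, which makes hyaluronan, rose by 3.92 (SE 0.87, adjusted p 0.0063) and 3.97 (SE 0.88, adjusted p 0.00385). The chemokine gene Ccl2 differed by 2.81 (adjusted p 0.0755) under VEH and rose by 4.07 (SE 1.22, adjusted p 0.0179) under HDM. Cxcl12, the chemokine of stromal niches, fell (-2.59, SE 0.51, and -4.51, SE 0.56), and so did Clec3b (-4.57, SE 0.82, and -4.78, SE 0.83).

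**Figure D5:**
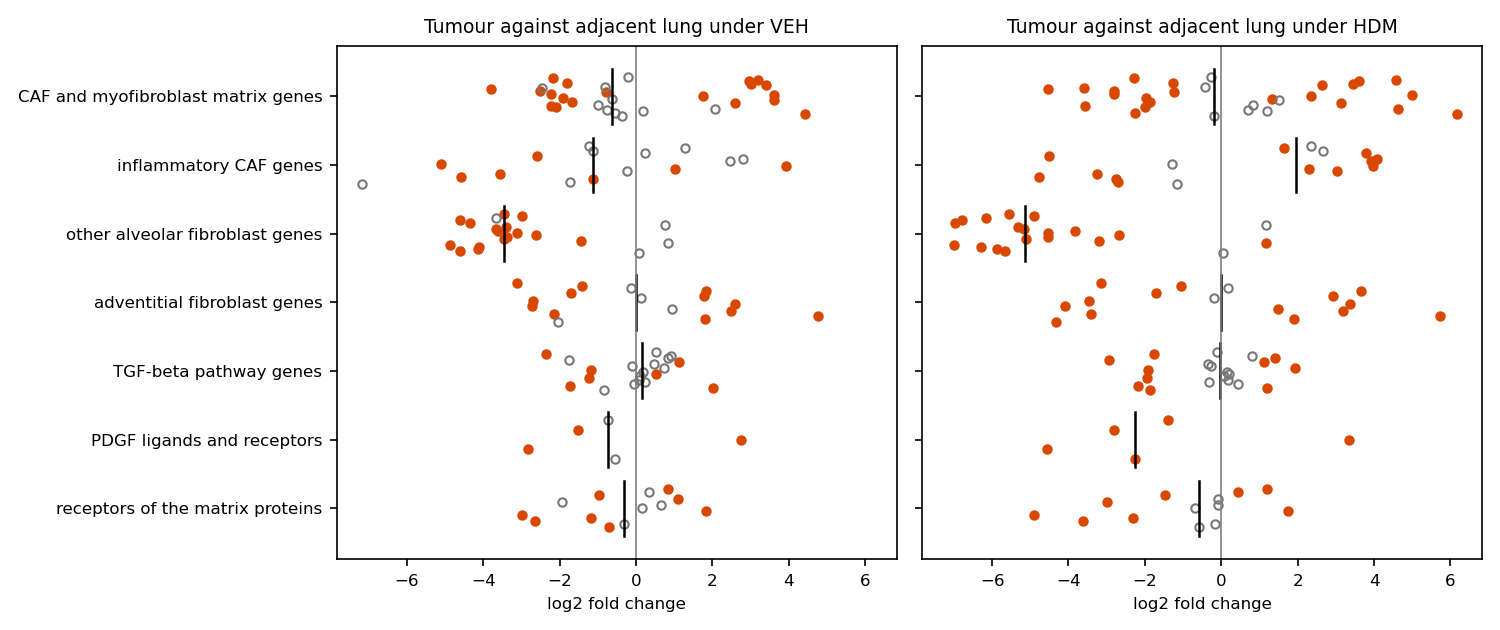
Log2 differences between tumour and adjacent lung of the genes of 7 lists under VEH and HDM, a point per gene, filled where the adjusted p was below 0.05 (edgeR quasi-likelihood test), with a bar at the median. The alveolar fibroblast list lies almost wholly below 0 (medians -3.46 and -5.14), and the matrix and adventitial lists spread to both sides.

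Adventitial fibroblast genes divided evenly, with 6 of 16 up and 6 down under VEH and 7 up and 7 down under HDM. Without the 4 libraries with conflicting prefixes, 2 fell under VEH and 3 under HDM, and with the prefix block 4 fell under HDM. Lum, the collagen-binding proteoglycan lumican, rose by 4.76 (SE 0.95, adjusted p 0.00388) and 5.72 (SE 0.99, adjusted p 0.00115). The related proteoglycan gene Dcn rose by 1.83 (SE 0.47) and 3.66 (SE 0.51), Igfbp4, which binds insulin-like growth factors, by 2.50 (SE 0.27) and 3.18 (SE 0.28), and Serpinf1 by 2.58 (SE 0.40) and 3.38 (SE 0.41). Pi16, a marker of adventitial cells, fell (-3.13, SE 0.87, adjusted p 0.0178, and -3.14, SE 0.87, adjusted p 0.0123). The protease gene Dpp4, a relative of Fap, fell (-2.73, SE 0.58, and -4.09, SE 0.62), opposite to the higher level of Fap in tumours.

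Ligands and receptors around the members were mixed. Among PDGF genes, Pdgfc, which encodes a ligand of Pdgfra, rose by 2.74 (SE 0.82, adjusted p 0.0244) and 3.33 (SE 0.85, adjusted p 0.00813), while Pdgfd and Pdgfb, ligands of Pdgfrb, fell under both treatments (Pdgfd -2.84, SE 0.44, and -4.57, SE 0.48). Pdgfa, the gene of another Pdgfra ligand, was not called under VEH and fell under HDM. Its mean was 83.2 CPM in adjacent lung and 49.6 CPM in tumours under VEH, and 72.7 and 27.7 CPM under HDM. Under VEH 1 of these 5 genes rose and 2 fell, and under HDM 1 rose and 4 fell. Under VEH 0 rose and 1 fell when normal VEH replicate 1 or 3, or tumour VEH replicate 1 or 3, was left out, and 1 fell without tumour VEH replicate 2. With no filter and in the fit of only the compared groups 0 rose and 1 fell under VEH, and with the replicate block 1 fell. Under HDM 2 fell without normal HDM replicate 3, tumour HDM replicate 2 or tumour HDM replicate 3, and without the 4 libraries with conflicting prefixes. Pdgfrb itself differed by -0.54 (adjusted p 0.569) under VEH and fell by 2.25 (SE 0.76, adjusted p 0.0289) under HDM.

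Of 13 receptors of these matrix proteins, 3 rose and 5 fell under each treatment. Under VEH 1 rose without normal VEH replicate 3, and 3 fell without normal VEH replicate 2 or 3 or tumour VEH replicate 1 or 3. Under VEH 3 fell also with library size scaling and with no filter on low counts, and 2 with the prefix block and without the 4 libraries with conflicting prefixes. Itga5, a subunit of the main fibronectin receptor, rose by 1.83 (SE 0.22, adjusted p 0.000423) and 1.75 (SE 0.22, adjusted p 0.0002), from 54.4 ± 8.91 to 194 ± 49.8 CPM under VEH. Itgav, part of several receptors for fibronectin and periostin, rose by 0.84 (SE 0.22) and 1.21 (SE 0.23). Itga8, the partner of nephronectin, fell (-3.0, SE 0.75, and -4.9, SE 0.82), and Npnt was lower as well. Itga9, which binds tenascin C, fell (-1.18, SE 0.27, and -2.32, SE 0.28), as did Cd36, a receptor of thrombospondins (-2.65, SE 0.59, and -3.61, SE 0.62).

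TGF-beta genes rose and fell in numbers near the shares of all genes, which were 18.2% up and 20.6% down under VEH and 23% and 28.9% under HDM. Of 20, 3 rose and 4 fell under VEH and 4 rose and 6 fell under HDM, with medians of 0.14 and -0.02, and without tumour VEH replicate 1 or 3, 2 fell under VEH. Without the 3 libraries that stand apart 5 rose under VEH. The ligand gene Tgfb1 differed by 0.53 (SE 0.26, adjusted p 0.116) and -0.12 (SE 0.25, adjusted p 0.710), and Tgfb2 fell (-2.36, SE 0.31, adjusted p 0.000602, and -1.75, SE 0.31, adjusted p 0.00107). Among targets of the pathway, Tgfbi rose by 2.01 (SE 0.44) and 1.19 (SE 0.43), whereas Ccn2 (-1.74, SE 0.46, and -2.19, SE 0.46) and the inhibitor Smad7 (-1.23, SE 0.28, and -1.94, SE 0.29) fell.

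Between HDM and VEH, no gene of the 7 lists passed in tumours, in adjacent lung or in the interaction in the edgeR test. The lists' medians in tumours ran from -1.19 for the alveolar fibroblast genes to 0.19 for the inflammatory genes, beside -0.03 for all genes. In adjacent lung they ran from -0.77 (inflammatory genes) to 0.27 (alveolar fibroblast genes), beside -0.01.

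Finally, the genes with the most similar profile over the 12 libraries were looked up for each member, by the root mean square difference of log2 CPM after both genes were centred, among 13166 protein-coding genes. Since most of the variance lies between tumour and adjacent lung, a small distance largely restates that difference. Thbs2 had a close neighbour in the transcription factor Tbx15 (0.29), followed by Hoxa10 (0.54) and Dkk2 (0.55). Lrrc15 lay nearest to Gpr149 (0.79) and Lum (0.83), and Tnc to Mmp13 (0.73) and Inhba (0.87). Inmt lay nearest to Ces1d (0.69), an esterase of the alveolar fibroblast list, and Cyp2f2 (0.84), known from airway secretory cells. Tcf21 was nearest to Scn7a (0.39) and Npnt to Atp2a3 (0.28). Postn was nearest to Calhm5 (0.56) and Cspg4 (0.60), the latter a gene of pericytes and smooth muscle. Fap had no neighbour closer than Il1rl1 (1.03), the largest first distance of the 10 genes. The small distance of Pdgfra from Camkk2 (0.27) goes with a narrow spread of its own (SD 0.60, against 1.44 to 4.2 for the other 9 genes).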

How the data were processed

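RNA-seq read counts per gene were measured in 12 mouse libraries. The deposited values are raw counts per Ensembl gene, not normalized, with the length of each gene in another column, per the file headers. Per the submitters' processing notes, Trim Galore, STAR and featureCounts of Subread were used with the mm39 build, without versions. Whether counting used the strand is not given in the sources used here. Libraries were made by a stranded dUTP workflow, per the labels' protocols, which name both poly(A) selection and ribosomal RNA depletion without saying which was used. Of 78298 identifiers 78168 occur in GENCODE M39, from which symbols and GRCm39 coordinates come, and the other 130 held 0.143% of counts.

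In R 4.3.3, edgeR 4.0.16 kept 22190 genes (filterByExpr, minimum count 10), scaled by TMM and fitted a coefficient per group to all 12 libraries with robust quasi-likelihood. Tests are two-sided F-tests with Benjamini-Hochberg adjustment over all genes, called at 0.05. An SE is the log2 change divided by the square root of F. CPM is scaled by TMM, log2 CPM uses a prior count of 2, and 3 counts are taken as the floor. Intervals and floors cover these libraries and counting error only.

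The 10 genes, the 7 gene lists and the marker lists were chosen with earlier results of these data known, and support nothing by their choice. Named beside the members were, from each list, the 4 highest and the 4 lowest at most among called genes with an average log2 CPM of at least 1, other list genes by their value, and the 3 nearest profiles of a member. Groups came from sample titles. Replicate numbers and library-name prefixes did not enter the main test, since 2 prefixes join libraries with different treatment labels. The test was tried on simulated counts.

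Alternatives were DESeq2 size factors, library size scaling, no filter, at least 10 counts in every library, the DESeq2 1.42.0 Wald test, a replicate block, a prefix block, omission of the 4 libraries with conflicting prefixes, a fit of only the compared groups, and omission of each library. Omission of the 3 libraries that stand apart was chosen after seeing the data.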

Additional observations from a re-analysis of the deposited data

How the results depend on the processing

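The tumour against adjacent directions of the 10 genes held under all alternatives where they were fitted, and Lrrc15, Fap, Tcf21 and Inmt could not be fitted under the stricter filter on counts. No label says that replicate numbers pair the libraries. Correlations of deviations from the group means ran from -0.36 to 0.28 for same-numbered libraries, and from -0.22 to 0.18 for libraries sharing a prefix. With means of 3 libraries, such a check can neither show nor exclude pairing.

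Genes called between HDM and VEH in tumours (21) numbered 8 with library size scaling, 52 without a filter, 53 where each library had to hold at least 10 counts, 1308 with the DESeq2 Wald test, 1 with the replicate block, and 0 with the prefix block, without the 4 conflicting libraries and in the fit of only the compared groups. Leaving out 1 library gave 0 to 24 (24 without tumour HDM replicate 3). The Wald test called 38 genes in adjacent lung and 219 in the interaction, where leaving out the 3 libraries gave 1 and leaving out single libraries 0 to 6. Under VEH, the 8624 genes called between tissues became 5603 without the conflicting libraries and 5733 to 9070 with a library left out. There the median of the tumour set was 5.99 without the 3 libraries and 3.33 to 5.52 with 1 left out. Inmt between HDM and VEH tumours passed the Wald test (-3.30).

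Directions that changed belong to differences that passed no test, and the cause was not tested. Between tumours these were Lrrc15 (0.072 with library size scaling, 0.0085 without the conflicting libraries, 0.18 without the 3), Fap (-0.17 without the 3), and Fn1 (-1.05) and Thbs2 (-1.04) with the prefix block. In adjacent lung they were Fn1 (-0.35) and Inmt (1.90) with the prefix block, Postn (-0.59), Thbs2 (0.65) and Tcf21 (-0.77) without the conflicting libraries, and Postn (-0.18), Tnc (0.14), Thbs2 (1.07) and Tcf21 (-0.47) without the 3. In the interaction they were Fn1 (-0.013) with the replicate block, Fn1 (-0.70) and Pdgfra (0.13) with the prefix block, Tnc (0.17), Fn1 (-0.92), Thbs2 (-0.092) and Pdgfra (0.15) without the conflicting libraries, and Fn1 (-1.40) and Thbs2 (-0.57) without the 3.

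With 1 library left out, signs also turned in adjacent lung for Fn1 (-0.38 to 1.56), Inmt (-0.76 to 0.083), Postn (-0.18 to 0.72), Tcf21 (-0.47 to 0.75), Thbs2 (-2.53 to 1.07) and Tnc (-1.48 to 0.15). In tumours they turned for Fap (-0.46 to 2.0), Fn1 (-0.021 to 0.89), Lrrc15 (-0.67 to 0.47) and Postn (-0.20 to 1.2). In the interaction they turned for Fn1 (-1.2 to 0.87), Pdgfra (-0.42 to 0.13), Postn (-0.48 to 0.93), Thbs2 (-0.50 to 3.11) and Tnc (-1.79 to 0.37). Where an arm kept 2 libraries, its spread was pooled with that of the other groups.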
